A study of Mus musculus with 12 samples.

Results

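The 9 genes described here were Crem, Creb1, Atf1, Crtc1, Crtc2, Crtc3, Pde4a, Pde4b and Pde4d, which encode transcription factors, coactivators and phosphodiesterases of the cAMP pathway. Members were listed by gene name, with earlier results of these data known, and all 9 were found among the 20989 loci quantified. All 9 were also among the 12032 loci with a mean of at least 1 FPKM (fragments per kilobase of transcript, scaled to the fragments mapped in the library), the loci that were tested. Poly-A RNA was sequenced from the auditory cortex of acute brain slices of 4-week-old C57bl6/J mice, with 12 libraries from 6 mice. In each mouse, 1 hemisphere of the slice was kept for 1 h in artificial cerebrospinal fluid (aCSF, the control), and the other was kept for 1 h in cocktail aCSF. By the methods of the study, both hemispheres then rested for 1 h in aCSF before the cortex was taken. The cocktail held 50 µM bicuculline methiodide, 100 µM norepinephrine, 50 µM carbamoylcholine, 100 µM dopamine, 40 µM ascorbic acid and 100 µM serotonin. These agents were applied together, so their separate effects cannot be told apart, and both hemispheres had gone through the same slicing and recovery.

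Cyclic AMP is made by adenylyl cyclases under the control of G proteins and is broken down by phosphodiesterases, among which the PDE4 enzymes are specific for cAMP. It activates protein kinase A, which phosphorylates CREB (encoded by Creb1) and its relatives ATF1 and CREM, and it moves the CRTC coactivators into the nucleus, where they bind CREB at cAMP response elements. In neurons, calcium entry acts on the same factors, and Crem and several other CREB target genes are themselves induced by stimulation.

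Of the 9 genes, Crem was the one that passed the test. Its control mean of 10.5 ± 1.10 FPKM rose to 14.5 ± 1.34 FPKM in the cocktail (SD, n = 6 mice), a geometric mean ratio of 1.39 within mice, and it was higher in the cocktail hemisphere of 6 of 6 mice. The other 8 genes did not pass the test, with adjusted p-values from 0.527 to 0.927 (limma with the mouse as a block and Benjamini-Hochberg adjustment over all 12032 loci). The share of the genes called, 1 of 9, stands beside 1.50% of all loci tested that were called in either direction, 1.22% that were called higher and 0.274% that were called lower. The median log2 fold change of the 9 genes was -0.03, against 0.01 for all loci tested, and 4 of the 9 were higher.

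Reads recovered from the error intervals of the FPKM values numbered 10600193 to 19768184 per library in control and 13539422 to 17506709 in cocktail. These are reads counted at the listed loci, without values marked as failed or low in data, and not all reads sequenced. Control mouse 1 stood apart from the other 5 controls. It lay far from them at 11.7% of the loci tested, against 0.283% to 0.814% for the other control libraries and 0.416% to 1.29% for the cocktail libraries, each set against its own group. It also had the most recovered reads and the lowest summed FPKM, 290155. Its part in the results was not tested, and changes of the 9 genes are given with and without mouse 1.

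Cell type markers were measured for the cortex and for tissue that might be cut along with it. Summed over 7 markers of excitatory neurons, the level was 1350 to 1496 FPKM in control and 1274 to 1469 FPKM in cocktail. The 6 markers of inhibitory neurons summed to 480 to 540 FPKM in control and 511 to 557 FPKM in cocktail, and the 6 astrocyte markers to 445 to 593 and 537 to 600 FPKM, with the lowest astrocyte sum in control mouse 1. Sums in control and cocktail were 1998 to 2566 and 2301 to 2645 FPKM for 6 oligodendrocyte markers, 100 to 114 and 99.5 to 122 FPKM for 7 microglial markers, and 40.0 to 47.4 and 40.6 to 51.7 FPKM for 5 endothelial markers. The 5 striatal markers summed to 27.5 to 44.1 FPKM in control and 34.0 to 40.4 FPKM in cocktail. Among the 4 choroid plexus markers, Otx2 was listed at 0 in every library and Ttr and Folr1 stayed under 1 FPKM. No marker in any of these lists was called in limma, 1 had an unadjusted p under 0.05 (Cdh5, of endothelial cells, at 0.18), and list medians of the log2 fold change ran from -0.08 to 0.12. In bulk tissue, fewer cells of a type and less RNA per cell cannot be told apart.

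The transcription factors are considered first. Crem encodes the cAMP responsive element modulator, whose transcripts give rise to activators and to repressors, including a short inducible repressor made from an internal promoter. The locus spans bases 3266354 to 3337589 of chromosome 18 (mm10), and its value sums 16 annotated transcripts, so the activator and repressor forms were not separated. In the control hemispheres of mice 1 to 6, Crem was at 9.46, 10.3, 10.4, 9.85, 12.6 and 10.2 FPKM. In the cocktail hemispheres of the same mice it was at 15.8, 16.0, 13.5, 13.3, 15.4 and 13.1 FPKM. Every cocktail value lay above every control value, and the closest were 12.6 FPKM in control mouse 5 and 13.1 FPKM in cocktail mouse 6. Such a separation was seen at 0.715% of all loci tested and at 1 of the 9 genes.

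Within mice, the ratio of cocktail to control for Crem was 1.67 in mouse 1, 1.55 in mouse 2, and between 1.22 and 1.35 in the other 4. On the log2(FPKM + 1) scale the change was 0.44 (SE 0.06, 95% interval 0.30 to 0.57), with an unadjusted p = 1.71e-05 and an adjusted p = 0.00282 in limma. A two-sided exact permutation test that flipped the sign of each mouse's change gave p = 0.03125, the smallest that 6 pairs allow. Without mouse 1, which had the largest change of the 6, the change was 0.38 (95% interval 0.27 to 0.50, adjusted p = 0.00330 in limma). Among the 147 loci called higher, Crem ranked 78 by the size of its rise. The values rest on 218 to 351 reads per library in control and 375 to 559 in cocktail. Exons of Crem share 472 bases, 8.01% of its merged exon length in GENCODE M21, with Gm6225 on the opposite strand. The reads were strand specific by the methods of the study, and the strand setting of the quantification was not given in the sources used here.

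**Figure D1:**
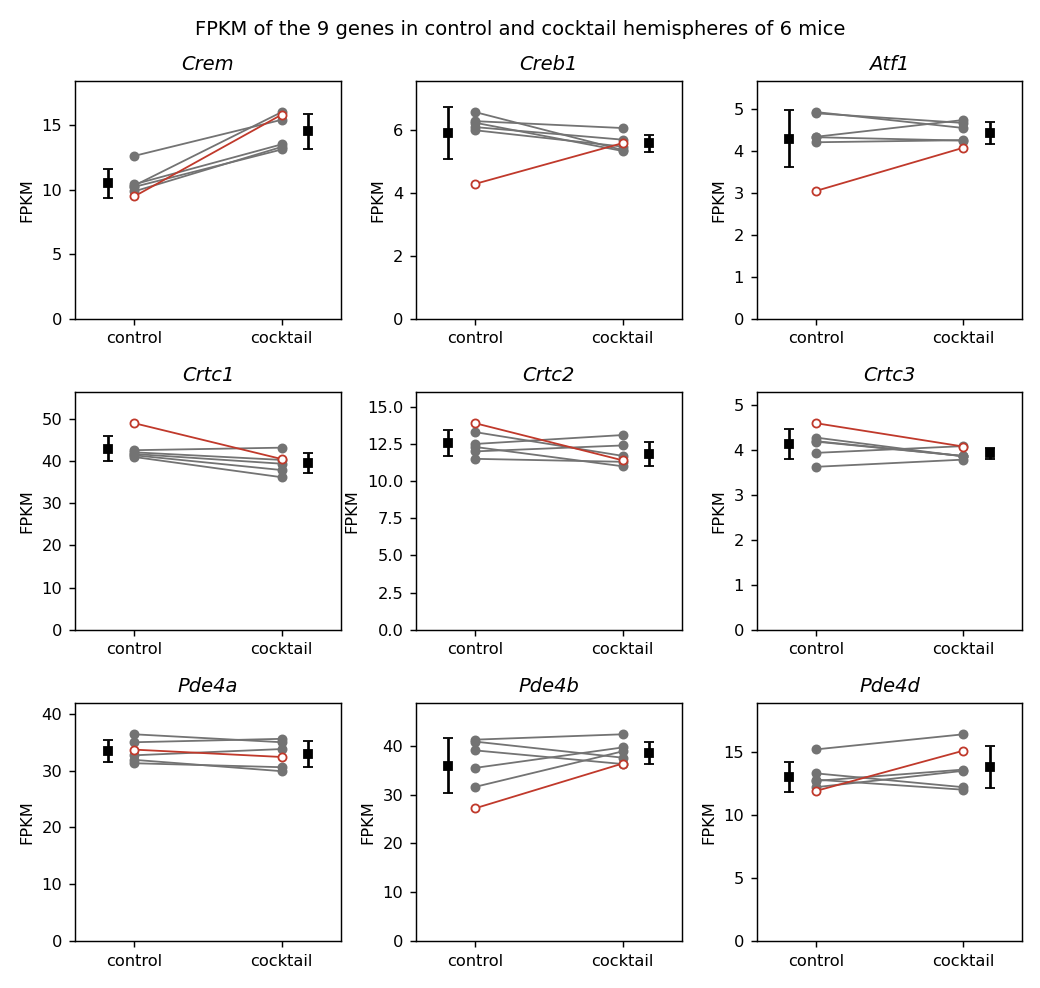
FPKM (y axis, from 0) of each of the 9 genes in the control and the cocktail hemisphere, with a line joining the hemispheres of each mouse, mouse 1 drawn as open red circles, and black squares with bars for the mean and SD over 6 mice. Crem is the gene whose groups do not overlap, at 9.46 to 12.6 FPKM in control and 13.1 to 16.0 FPKM in cocktail. Control mouse 1 is the lowest control for Crem, Creb1, Atf1, Pde4b and Pde4d, and the highest for Crtc1, Crtc2 and Crtc3.

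Creb1 encodes CREB itself, the activator through which cAMP and calcium signals reach many promoters. The locus spans bases 64532804 to 64604548 of chromosome 1. Its level in control was 4.29 FPKM at the lowest, 6.17 at the median and 6.58 at the highest, and in cocktail 5.34, 5.54 and 6.07 FPKM. The groups overlapped. Control mouse 1 was the lowest library, and the other 5 controls lay between 6.00 and 6.58 FPKM. The means were 5.92 ± 0.820 and 5.59 ± 0.270 FPKM (SD, n = 6), a log2 change of -0.06 (SE 0.07, 95% interval -0.22 to 0.10, adjusted p = 0.893 in limma). Creb1 was lower in the cocktail hemisphere of mice 2 to 6 and higher in that of mouse 1. Without mouse 1 the log2 change was -0.14 (95% interval -0.25 to -0.02), lower in 5 of 5 mice, with an unadjusted p = 0.0245 and an adjusted p = 0.437 in limma. The deposited status of the Creb1 value of control mouse 2 marked a failed estimate of its interval, so its reads could not be recovered, and its FPKM of 6.10 was used as listed.

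Atf1 encodes a close relative of CREB that can pair with it on DNA. The locus spans bases 100227859 to 100261248 of chromosome 15, and with 113 to 216 reads per library its values were the least deeply covered of the 9. Levels were 3.04, 4.32 and 4.92 FPKM (lowest, median and highest) in control and 4.07, 4.39 and 4.73 FPKM in cocktail, so that the cocktail values lay within the range of the controls. The log2 change was 0.05 (95% interval -0.10 to 0.19, adjusted p = 0.920 in limma), with 3 mice higher and 3 lower. Control mouse 1 again held the lowest value, and without mouse 1 the change was -0.01 (95% interval -0.13 to 0.11).

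The changes of the 3 factors were set against each other within each mouse, as 3 of 9 comparisons between related members. Crem rose more than Creb1 in 6 of 6 mice, by 0.50 on the log2(FPKM + 1) scale (SD 0.12, range 0.37 to 0.67). It exceeded Atf1 in 6 of 6 mice, by 0.39 (SD 0.08, range 0.32 to 0.50). The change of Creb1 lay below that of Atf1 in 6 of 6 mice, by -0.11 (SD 0.11, range -0.27 to -0.01). Each gave p = 0.03125 in the same two-sided exact permutation test, the smallest possible with 6 mice, and p = 0.09375 after adjustment over the 9 comparisons. None of the 9 passed 0.05. With this smallest p, a comparison could pass only if most of the 9 reached it, so the adjusted test could not decide these 3 differences. Without mouse 1 the same 3 differences were 0.52, 0.40 and -0.13.

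The CRTC coactivators had the lowest and the highest level among the 9 genes. Crtc1, the family member best known from neurons, spans bases 70382358 to 70439573 of chromosome 8. It was measured at 40.9, 41.8 and 48.9 FPKM (lowest, median and highest) in control and 36.1, 39.8 and 43.1 FPKM in cocktail. The groups overlapped through cocktail mouse 3, at 43.1 FPKM, while the other 5 cocktail values were at or below 40.4 FPKM and every control was at or above 40.9 FPKM. The means were 42.9 ± 3.03 and 39.5 ± 2.38 FPKM (SD, n = 6), a log2 change of -0.11 (SE 0.05, 95% interval -0.22 to -0.01), lower in 5 of 6 mice. Its unadjusted p was 0.0347 and its adjusted p was 0.527 in limma, and Crem and Crtc1 were the 2 of 9 genes with an unadjusted p under 0.05. The highest control was mouse 1, and without it the change was -0.08 (95% interval -0.17 to 0.00, unadjusted p = 0.0619).

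Crtc2, a coactivator best known for its part in the response of the liver to fasting, spans bases 90254281 to 90264125 of chromosome 3. It stood at 11.5, 12.4 and 13.9 FPKM in control and 10.96, 11.5 and 13.1 FPKM in cocktail, with overlapping groups and 4 of 6 mice lower. The log2 change was -0.08 (95% interval -0.21 to 0.04, adjusted p = 0.794 in limma), and -0.05 without mouse 1. Crtc3, the third coactivator of the family, spans bases 80586632 to 80688877 of chromosome 7 and had 3.62, 4.19 and 4.59 FPKM in control and 3.78, 3.86 and 4.08 FPKM in cocktail. All cocktail values lay within the range of the controls. Its log2 change was -0.06 (95% interval -0.18 to 0.06, adjusted p = 0.876 in limma), and -0.04 without mouse 1. Differences between the changes of the 3 coactivators were -0.05 to -0.02 on average over the mice, with adjusted p-values of 0.2812 to 0.6875 (exact sign-flip permutation test), and -0.04 to 0.00 without mouse 1.

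The PDE4 enzymes hydrolyse cAMP and are the targets of rolipram. Pde4a spans bases 21165714 to 21213248 of chromosome 9. It was at 31.3, 33.2 and 36.4 FPKM (lowest, median and highest) in control and 29.9, 33.1 and 35.6 FPKM in cocktail. The groups overlapped over most of their ranges, and the within-mouse changes, from -0.09 to 0.05 on the log2 scale, were the narrowest of the 9 genes (SD 0.05). The log2 change over mice was -0.03 (95% interval -0.12 to 0.07, adjusted p = 0.927 in limma), and -0.02 without mouse 1 (95% interval -0.11 to 0.06).

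Pde4b spans bases 102254742 to 102607262 of chromosome 4 and was measured at 27.2, 37.3 and 41.3 FPKM in control and 36.3, 38.2 and 42.4 FPKM in cocktail. The controls were spread widely (35.9 ± 5.63 FPKM, SD, n = 6), with mouse 1 the lowest and mouse 2, at 31.6 FPKM, the next. The cocktail libraries lay closer together, at 38.6 ± 2.32 FPKM. Pde4b was higher in the cocktail hemisphere of 4 of 6 mice, with a log2 change of 0.11 (95% interval -0.04 to 0.26, adjusted p = 0.783 in limma) that was 0.05 without mouse 1 (95% interval -0.08 to 0.18).

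Pde4d spans bases 108654177 to 109955969 of chromosome 13. Its values were 11.91, 12.7 and 15.2 FPKM in control and 11.95, 13.6 and 16.4 FPKM in cocktail, and mouse 2 was the highest of each group. The groups overlapped, and 4 of 6 mice were higher in the cocktail. The log2 change was 0.08 (95% interval -0.06 to 0.21, adjusted p = 0.845 in limma), and 0.03 without mouse 1. The changes of Pde4a, Pde4b and Pde4d differed from each other by -0.14 to 0.04 on average over the mice, with adjusted p-values of 0.3375 to 0.5223 (exact sign-flip permutation test). Without mouse 1, Pde4a minus Pde4b was -0.07 in place of -0.14, and Pde4a minus Pde4d was -0.05 in place of -0.10. Pde4b minus Pde4d was 0.03 in place of 0.04. Leaving out mouse 6 moved the differences of Pde4a from Pde4b and from Pde4d the other way, to -0.19 and -0.15.

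**Figure D2:**
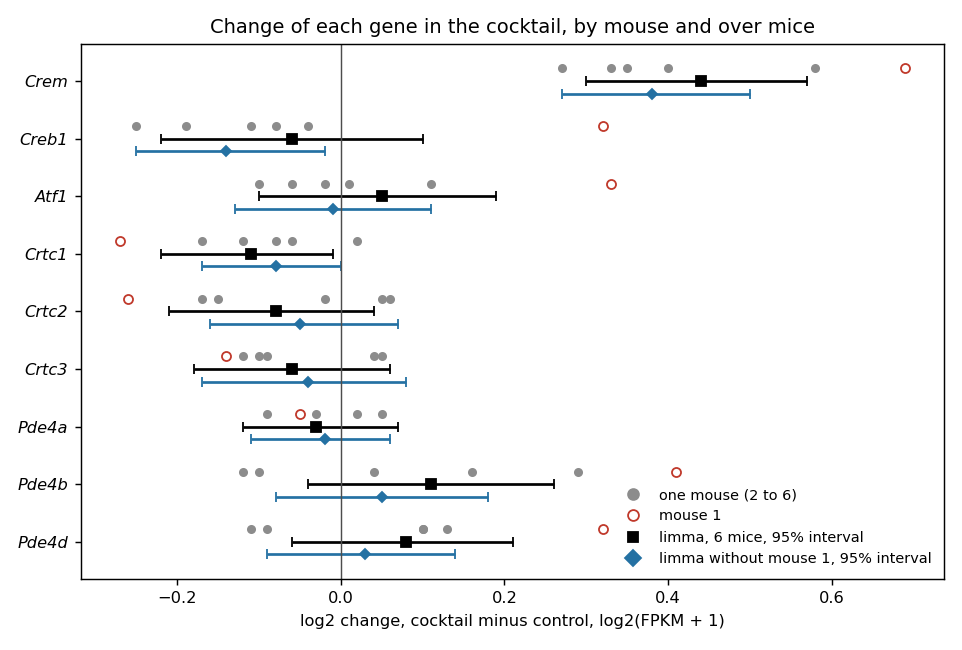
Change in log2(FPKM + 1), cocktail minus control (x axis), for each of the 9 genes, with a grey point for each of mice 2 to 6, an open red circle for mouse 1, black squares with 95% intervals from limma over 6 mice, and blue diamonds with 95% intervals without mouse 1. The interval of Crem, 0.30 to 0.57, lies to the right of 0 with mouse 1 and without it, and that of Creb1 runs from -0.22 to 0.10 with mouse 1 and from -0.25 to -0.02 without.

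Because FPKM is scaled to transcript length, the levels of the 9 genes could be put in order, as far as their annotated transcripts cover them. By the methods of the study, only fragments that fit the annotation were counted. Pde4d was annotated with 1 transcript, against 5 for Pde4b and 16 for Crem, so forms outside the annotation are missing from its level. In control the order from highest to lowest was Crtc1, Pde4b, Pde4a, Pde4d, Crtc2, Crem, Creb1, Atf1 and Crtc3, by mean FPKM. Crtc1 exceeded Pde4b in 6 of 6 mice, with a geometric mean ratio of 1.20 that was 1.11 without mouse 1. The highest ratio of this pair was 1.80 with mouse 1 and 1.29 without it. Pde4a over Pde4d (2.58), Crem over Creb1 (1.78) and Creb1 over Atf1 (1.39) also held in 6 of 6 mice. Without mouse 1 these ratios were 2.53, 1.71 and 1.38. Each of these pairs had p = 0.03125, the smallest that 6 mice allow, and an adjusted p = 0.0625 over the 8 neighbouring pairs (exact sign-flip permutation test). None of the 8 passed this test after adjustment. With this smallest p, a pair could pass only if most of the 8 reached it, so the adjusted test could not decide these orders. The neighbours Pde4b and Pde4a, Pde4d and Crtc2, Crtc2 and Crem, and Atf1 and Crtc3 were within their spread, with geometric mean ratios of 1.03 to 1.20 and both orders found among the mice. For Atf1 and Crtc3, mouse 1 alone had the reverse order. In the cocktail Crem moved from the sixth place to the fourth, ahead of Pde4d and Crtc2. There its ratio to Pde4d was 1.05 and it was the higher of them in 4 of 6 mice, so that the pair did not differ beyond its spread.

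Genes whose level followed that of each member most closely were sought over the 12 libraries, as a description. Control mouse 1 was included, and the correlations of these genes were not computed without it. The closest to Crem were Dusp6 (Pearson's r = 0.95, Spearman's rho = 0.93), which encodes a phosphatase of ERK, Spry2 (0.93 and 0.92), which encodes an inhibitor of receptor tyrosine kinase signalling, and Ifrd1 (0.93 and 0.88). All 3 were called higher in the cocktail, with log2 fold changes of 0.82, 0.56 and 0.67, and the 12 libraries share the contrast in which Crem rose. The 3 genes closest to each of the other 8 members were picked for following a gene that was not called. These genes (Pearson's r = 0.84 to 0.96, Spearman's rho = 0.74 to 0.94) were not called either. They were Nhsl2, Ubxn2a and Isoc1 for Creb1, Larp4, Srsf11 and Eif4g2 for Atf1, Ints5, Agpat1 and Shisa7 for Crtc1, Adprhl2, Dohh and Slc35b2 for Crtc2, 9430016H08Rik, Zfp574 and Gzmm for Crtc3, Sulf2, Nrxn2 and Clstn3 for Pde4a, Tdrd3, Tpm3 and Lmnb1 for Pde4b, and Fbxo28, Btaf1 and Ivns1abp for Pde4d. Between members, Creb1 and Atf1 had r = 0.67 over 12 libraries and -0.05 over the 11 without control mouse 1. In the same order, Atf1 and Pde4b had 0.84 and 0.56, Crem and Creb1 -0.07 and -0.74, and Crem and Crtc1 -0.72 and -0.67. The correlations of Crem with Creb1 and Crtc1 also hold the contrast between control and cocktail. No rule set beforehand chose the pairs given here, and the other pairs are not listed.

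The other steps of the pathway were read from lists of genes. Of 13 genes tested for cAMP synthesis (adenylyl cyclases and G protein subunits), limma called none, none had an unadjusted p under 0.05, and the log2 fold changes ran from -0.10 to 0.12. Of 20 genes of protein kinase A, its anchors and inhibitors and the Epac exchange factors, 1 was called higher and none lower. It was Akap12, which encodes a scaffold for protein kinase A, at 5.54 ± 0.803 FPKM in control and 8.37 ± 1.07 FPKM in cocktail (SD, n = 6), a log2 fold change of 0.52 (adjusted p = 0.000581 in limma), higher in 6 of 6 mice, and 0.49 without mouse 1. Of 9 other phosphodiesterases that hydrolyse cAMP, limma called none, and the log2 fold changes ran from -0.16 to 0.12. The 1 with an unadjusted p under 0.05 was Pde7b, at -0.16 (adjusted p = 0.264 in limma), lower in 6 of 6 mice, and at -0.14 without mouse 1. Pde4c, the fourth PDE4 gene, was at 0.905 ± 0.185 FPKM in control and 0.988 ± 0.135 FPKM in cocktail, below the level for testing.

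Of 23 kinases, phosphatases and coactivators that act on CREB or the CRTC proteins, 1 was called higher and none lower. It was Sik1, which encodes a salt-inducible kinase that phosphorylates CRTC proteins and keeps them out of the nucleus. Its level rose from 12.2 ± 1.43 to 18.3 ± 1.55 FPKM (SD, n = 6), a log2 fold change of 0.56 (adjusted p = 0.000191 in limma), higher in 6 of 6 mice, and 0.56 without mouse 1. The kinases Sik2 and Sik3 of the same family had log2 fold changes of -0.02 and -0.01. Among the uncalled genes, Camkk2, which encodes a calcium/calmodulin-dependent kinase kinase, had an unadjusted p = 0.0300 and an adjusted p = 0.503 in limma, with a log2 fold change of -0.11 with and without mouse 1. The levels of Camkk2 and of the coactivators Crebbp (-0.09) and Ep300 (-0.10) were lower in the cocktail hemisphere of 6 of 6 mice. Crebbp and Ep300 had adjusted p-values of 0.695 and 0.657 in limma. In the other pathway lists, Adcy1, Pde2a, Pde7b and Atf7 were also lower in 6 of 6 mice without being called. Per1 and Vgf, of the CREB target genes, were higher in 6 of 6 mice without being called. The share of all loci lower, or higher, in 6 of 6 mice was not computed. Of 9 other relatives of CREB in the bZIP family, limma called none, and the list median was 0.01. The 1 with an unadjusted p under 0.05 was Creb3l1, at 0.14 (adjusted p = 0.534 in limma) and at 0.18 without mouse 1.

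Of 23 known CREB target genes tested, 15 were called higher and none lower, and the list median of the log2 fold change was 0.55. The largest changes were those of Btg2 (1.07), an antiproliferative gene, Ptgs2 (1.04), which encodes cyclooxygenase 2, Fos (0.99) and Junb (0.86), which encode subunits of AP-1. Beside this list median the log2 fold change of Crem was 0.44, and Sik1 belongs to this list too. The list was drawn up with earlier results on these libraries known, so its count is not independent evidence of its direction. Without mouse 1 the count called was 13, and without the mouse as a block it was 12.

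**Figure D3:**
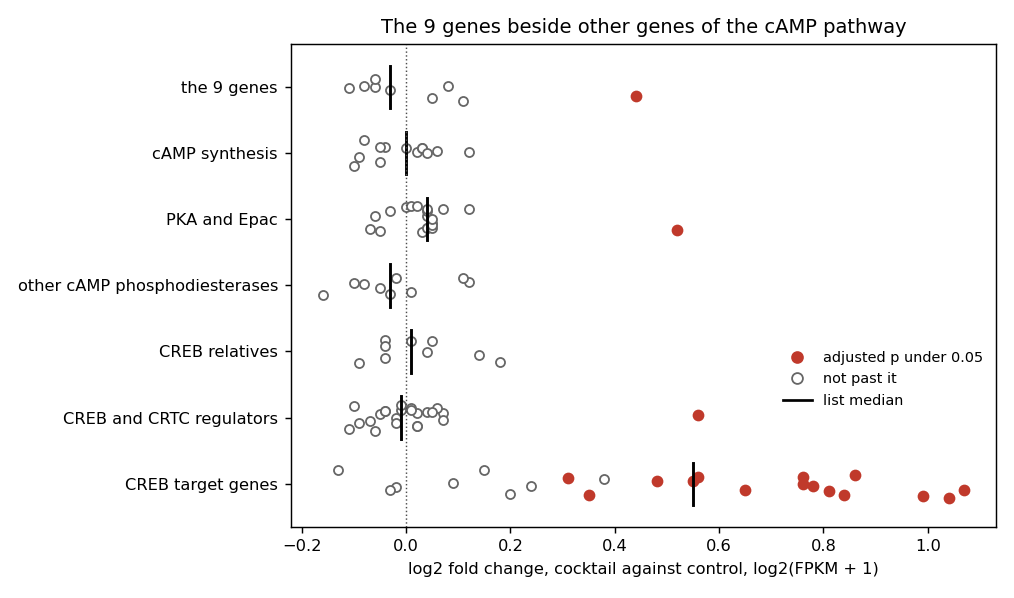
log2 fold change of cocktail against control on the log2(FPKM + 1) scale (x axis) for the genes tested in each list, with filled red points for genes with an adjusted p under 0.05, open points for the rest, and a black bar for the list median. The called genes are Crem at 0.44 among the 9, Akap12 at 0.52, Sik1 at 0.56, which appears in both lists that hold it, and 15 CREB target genes with a list median of 0.55.

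RefSeq promoter windows, from 250 bases before to 50 after a transcript start, were searched for the cAMP response element TGACGTCA and for its shorter form TGACG, on both strands (CGTCA on the other). The shorter form is contained in the full element, which reads the same on both strands. Windows were given for 7 of the 9 genes, 12 windows in all, and not for Crem and Crtc2. The full element was in 0 of the 12, against 588 of all 32851 windows (1.79%), and the shorter form was in 3 of the 12 (25.0%), against 20.8% of all windows. At a share of 1.79%, none in 12 windows is the likely outcome. In 27 windows of 19 of the CREB target genes, the full element was in 5 (18.5%) and the shorter form in 19 (70.4%). Genes on that list are known as CREB targets in part because of such elements. The median GC content was 58.7% in their windows, 59.5% in those of the members and 52.7% in all windows. Both forms of the element contain the bases CG, and the shares were not adjusted for GC content. The 3 matches of the member windows are shown to let the flanks be compared, with the match in capitals, 5′ to 3′ on the plus strand of GRCm38.p6. They lie at chr15:100227739-100227803, intergenic and upstream of Atf1, at chr9:21184021-21184085, in an intron of Pde4a before an internal start, and at chr4:102421491-102421555, partly in an annotated exon of Pde4b before an internal start.
Atf1: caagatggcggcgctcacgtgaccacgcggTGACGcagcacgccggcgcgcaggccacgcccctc
Pde4a: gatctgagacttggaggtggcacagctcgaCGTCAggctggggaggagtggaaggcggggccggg
Pde4b: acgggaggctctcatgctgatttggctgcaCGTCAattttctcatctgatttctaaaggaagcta
The matches began 90, 50 and 34 bases before the transcript start. None of the 3 genes was called, and a match of letters is a description and not a binding site.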

How the data were processed

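Auditory cortex from 6 control and 6 cocktail hemispheres was sequenced by the authors as single 50 bp reads in 1 lane. By the methods and the submitters' processing notes, ribosomal reads were removed with BWA 0.6.1, the rest aligned to mm10 with TopHat 1.4.1, and FPKM estimated with Cufflinks 1.3.0 on RefSeq genes, with bias correction. The FPKM values were used as deposited by the authors. The methods also give a 1 h rest in aCSF after the treatment, which the labels do not. The authors' DESeq2 table of fold changes, p-values and group means was not used.

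Loci with a mean of at least 1 FPKM were fitted as log2(FPKM + 1) in limma 3.58.1 (R 4.3.3), with mouse and treatment as terms, a variance trend, and Benjamini-Hochberg adjustment at 0.05. A fold change on this scale understates that of low genes. Single values were tested by exact sign-flip permutation over mice. Reads were recovered from the FPKM intervals, which span 2 Poisson SDs each way. Of 36158 values under 20 reads, 83.2% came out whole within 0.05. Reads and intervals cover counting error only. The fit was tested on simulated data.

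The mouse identity in the labels pairs the libraries. Deviations from the group mean correlated at 0.216 to 0.406 within a mouse (median 0.337, 6 pairs). Between mice they correlated at -0.42 to 0.445 (median -0.0714, 30 pairs). No library copied another of its group (chi-square per locus of 3.36 or more). A library was counted as far from its group at a locus by Dixon's test. Alternatives were no block, a pseudocount of 0.1, no filter or a mean of at least 5 FPKM, median-of-ratios and quantile scaling, no variance trend, voom on recovered reads, and leaving out each mouse. The members and lists were chosen with earlier results of these data known. The rule named all 9 members, up to 4 called genes a list in each direction, and the 3 loci most correlated with each member. Sik2, Sik3, Pde4c, Pde7b, Creb3l1, Camkk2, Crebbp, Ep300, Adcy1, Pde2a, Atf7, Per1, Vgf and Cdh5 were named after their values were seen. Figures were drawn with matplotlib 3.10.9 in Python 3.11.15.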

Additional observations from a re-analysis of the deposited data

Results flagged for a closer look

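In each group of 6 values, the highest or lowest was compared with its nearest neighbour by Dixon's test, over 27 groups (control levels, cocktail levels and within-mouse changes of the 9 genes). Chance flags about 1 in 20 groups, 1.35 of the 27, and 4 stood out. Crem in control mouse 5 was at 12.6 FPKM, with the other 5 controls at 9.46 to 10.4 FPKM, and it still lay below every cocktail value. Creb1 in control mouse 1 was at 4.29 FPKM, with the others at 6.00 to 6.58 FPKM. The within-mouse change of Creb1 in mouse 1 was 0.32 on the log2(FPKM + 1) scale, with the others at -0.25 to -0.04. Crtc1 in control mouse 1 was at 48.9 FPKM, with the others at 40.9 to 42.5 FPKM. Control mouse 1 thus held 2 of the 4 values, and it also entered the Creb1 change. The part of that library in these values was not tested.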

How the results depend on the processing

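Crem was called and higher under all 14 alternatives, with log2 fold changes of 0.38 to 0.56 and adjusted p-values of 0.00104 to 0.0209 in limma, the largest change being that of voom on recovered reads. None of the other 8 genes was called under any alternative that gave it a value. Without the replicate block (the mouse), 88 loci were called in place of 180, and Crem was among them (adjusted p = 0.00487). Leaving out each mouse gave 104 (mouse 4) to 181 (mouse 6) loci called. The log2 change of Atf1 ran from -0.01 (without mouse 1) to 0.07 when mice were left out, and the change of Crtc2 minus that of Crtc3 from -0.06 (without mouse 5) to 0.01 (without mouse 6). The causes were not tested. The smallest p that 5 mice allow in the sign-flip test is 0.0625. The reads of Creb1 in control mouse 2 could not be recovered, so voom gave Creb1 no value, and the filter at 5 FPKM removed Atf1 and Crtc3.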
